A study of Mus musculus with 7 samples.

Results

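Kinesins, the motor proteins that move along microtubules, and the proteins of the centromere were followed in whole mouse embryos exposed to maternal diabetes. The members were all probe sets whose annotated symbol is a Kif or Kifc gene, a Cenp gene followed by a single letter, or one of Aurka, Aurkb, Bub1, Bub1b, Plk1, Ttk, Mad2l1 and Incenp. The array carried 94 such probe sets, out of 22626 in all, for 48 of the 12393 annotated genes. They comprise 17 probe sets of mitotic kinesins, 12 of checkpoint genes and mitotic kinases, 19 of centromere proteins, 36 of kinesins for transport and other tasks and 10 of kinesins of the cilium. These roles were assigned by hand from general knowledge of the genes.

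All embryos were of the FVB inbred strain and were taken whole at embryonic day 10.5, with 1 array for each embryo. The exposed embryos came from a dam aged 7 to 9 weeks made diabetic with streptozotocin, which destroys the insulin-producing cells of the pancreas. The blood glucose of the dam was above 250 mg/dl. Of the 5 exposed embryos, 2 had a neural tube defect (NTD) and 3 had no malformation identified. The 2 control embryos came from a dam that was not diabetic. The study describes a single dam for each condition, so that diabetes, streptozotocin, dam and litter cannot be told apart, and p-values measure the spread between littermates. Each value is a signal on a linear scale, computed by the authors with MAS5 and scaled on each array to the same trimmed mean. In tissue from a whole embryo, fewer cells of a type and less RNA per cell cannot be told apart.

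During mitosis the chromosomes are caught by spindle microtubules at the kinetochore, which is built on centromeric chromatin marked by the histone variant Cenpa. Mitotic kinesins push the spindle poles apart, align chromosomes or help to divide the cell, while Aurora kinases, Plk1 and the checkpoint kinases correct attachments and hold the cell until all chromosomes are attached. Other kinesins carry vesicles and organelles, above all along axons, and the kinesin-2 motors Kif3a and Kif3b build the cilia through which Hedgehog signalling passes in the embryo. The neural tube closes around this stage while its progenitors divide rapidly.

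Of the member probe sets, 76 for 44 genes passed the filter on dim signals, which asked that a signal reach the 40th percentile of its array in no fewer than 2 of the 7 embryos. Of these, 61 passed on all 7 arrays. The filter let 3 members pass through exposed embryos alone (Kif17 1419827_s_at, Kif2c 1432392_at and Kif1c 1424747_at) and 1 through control embryos alone (Kif5c 1450804_at), so each of these 4 is dim in one of the groups by construction. The remaining 18 probe sets were not tested, among them the single probe sets of Kif9, Kif12 and Kif21b and both of Kifc2.

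One member passed the test for a difference between exposed and control embryos. The mitotic kinesin Kif11 fell at 1 of its 3 probe sets, and no member rose (limma, Benjamini-Hochberg adjusted p under 0.05 over all 14542 tested probe sets). Over all tested probe sets 0.172% were called, 0.0619% lower and 0.11% higher in exposed embryos. At an unadjusted p under 0.05, 10 of the 76 members were lower and 4 were higher in exposed embryos, or 13.2% and 5.26%, beside 8.52% and 7.63% of all tested probe sets (both together 18.4% of members and 16.1% of all). Of these, 1 of the lower and 2 of the higher members had passed the filter through a single group, and over the 72 members that reached it in both groups, a selection made after the values were seen, 9 were lower and 2 higher. Fits without a control embryo rest on 1 control, so their member counts are not set beside these. In them fewer probe sets passed the unadjusted threshold over the whole array, and the members passing it fell by a larger share. In 15 members all exposed embryos lay below both controls and in 7 above both, or 19.7% and 9.21%, beside a background of 13.4% and 11.4%. The median log2 fold change of the members was -0.09, beside 0.00 for all tested probe sets, with 51 members below zero and 25 above. Taken by gene, each with its brightest probe set, 0 of 44 were called, 4 were lower and 2 higher at an unadjusted p under 0.05, and the median was -0.05. The 95% interval reached a median of 0.37 to either side of a member's log2 fold change, and under 0.5 in 60 of 76. Smaller differences were mostly not detectable with 5 against 2 embryos. Larger ones could also go uncalled, since the interval is not adjusted for the number of probe sets. Kif1b at 1451762_a_at, for example, was at -0.71 with an adjusted p of 0.164 (limma).

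**Figure D1:**
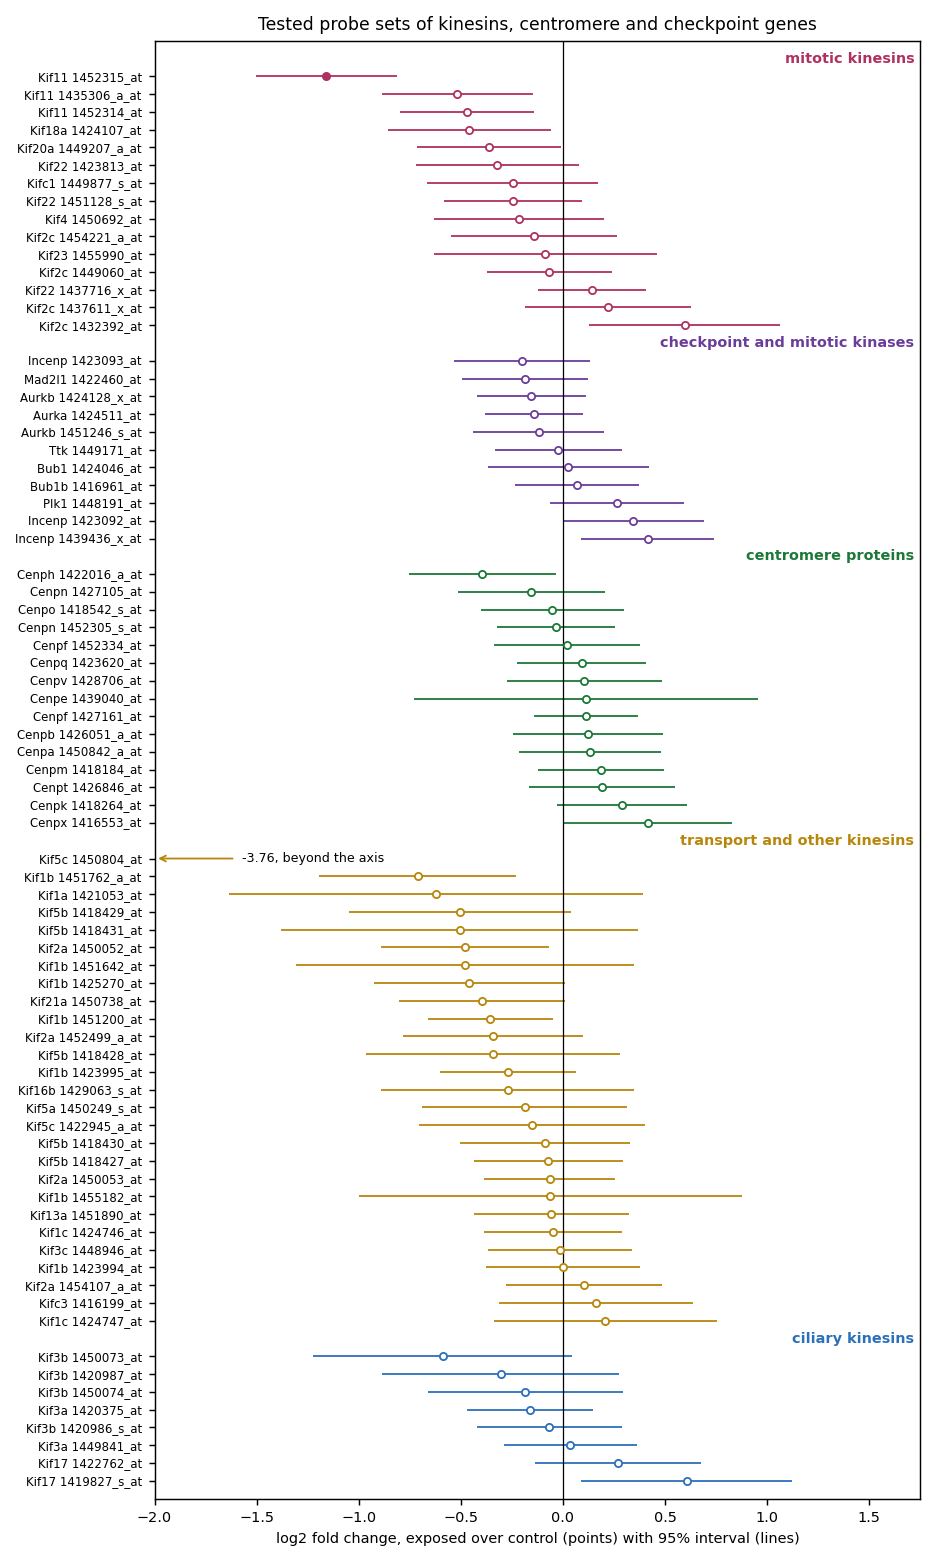
Log2 fold change of every tested member probe set in exposed over control embryos (horizontal axis), with its 95% interval from the limma fit; rows are probe sets grouped by role, the filled point is the single one with an adjusted p under 0.05, and the value of Kif5c 1450804_at is written beside an arrow. Kif11 1452315_at stands at -1.16, most kinesin rows lie left of zero and 11 of 15 rows of centromere proteins lie right of it.

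Mitotic kinesins held 5 of the 10 members that were lower at an unadjusted p under 0.05. Of their 15 tested probe sets, 5 were lower and 1 higher, or 33.3% and 6.67%. Over all tested probe sets it was 8.52% and 7.63%, the background at this threshold for the roles below as well. The median log2 fold change of mitotic kinesins was -0.24 and 12 values were below zero. The higher one, of Kif2c, passed the filter through exposed embryos alone. Of the 5 lower probe sets 3 belong to Kif11. Counted by gene, with the brightest probe set of each, 3 of 8 were lower (Kif11, Kif18a and Kif20a) and 0 higher. Without control embryo 1 the median over the 15 probe sets was -0.23 and without control embryo 2 it was -0.24.

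Kif11 encodes the kinesin-5 motor known as Eg5, which slides antiparallel microtubules to separate the spindle poles and also acts in the axons of young neurons. Its probe set 1452315_at had a signal of 396 and 364 in the exposed embryos with NTD and 293, 342 and 298 in those without, against 782 and 723 in control embryos. The 5 exposed embryos lay close together, at about the same distance below both controls. Exposed embryos averaged 339 ± 43.9 (SD, n = 5) and control embryos 752 ± 42.1 (SD, n = 2), a mean 2.22-fold higher in control, with a log2 fold change of -1.16 (SE 0.16) and an adjusted p of 0.0279. The exact two-sided permutation test of 5 against 2 embryos gave p = 0.048, the smallest of its 21 splits. Kif11 is also on a gene list that the study chose on these same arrays, so its call is no independent evidence of the direction.

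The other probe sets of Kif11 were lower by less. At 1435306_a_at the signal was 522 and 689 in exposed embryos with NTD and 626, 610.0 and 735 in those without, against 782 and 1046 in control embryos. At 1452314_at it was 582 and 663 with NTD and 508, 507 and 501 without NTD, against 737 and 784 in control. In both, every exposed embryo was below both controls. Their log2 fold changes were -0.52 (SE 0.17) and -0.47 (SE 0.15), with adjusted p-values of 0.180 and 0.172 (limma) and an exact permutation p of 0.048 each. The call at 1452315_at was lost without exposed embryo 3 without NTD (adjusted p = 0.0629), without exposed embryo 2 with NTD (0.0518), without control embryo 1 (0.2295) and without control embryo 2 (0.2299), while its fold change stayed between -1.22 and -1.10 in these fits.

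**Figure D2:**
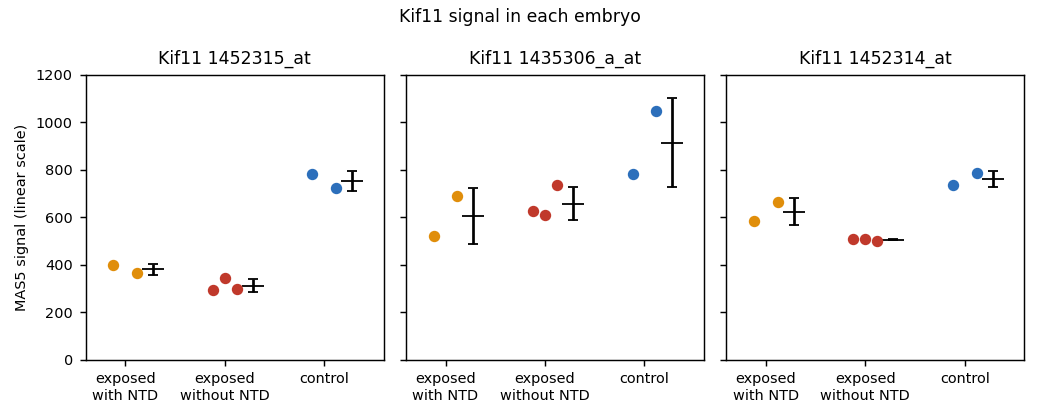
MAS5 signal (vertical axis, linear scale) of the 3 Kif11 probe sets, 1 panel each; points are embryos of the 3 groups and the bar beside them is the mean with its SD. At 1452315_at the 5 exposed embryos sit between 293 and 396, against 723 and 782 in control embryos, and at the other probe sets the gap is narrower.

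Kif18a, a kinesin-8 that dampens the oscillation of chromosomes at the metaphase plate, had a signal of 244 and 314 in exposed embryos with NTD and 216, 289 and 232 in those without, against 373 and 334 in control embryos. All exposed embryos were below both controls, at a log2 fold change of -0.46 (SE 0.18, exact permutation p = 0.048). Kif20a, which carries the passenger complex to the central spindle in late mitosis, had 642 and 689.8 with NTD and 539, 498 and 653 without NTD, against 828.9 and 718 in control, at -0.36 (SE 0.16, exact permutation p = 0.095). Its exposed embryos were again all below both controls. Neither passed the adjusted threshold (adjusted p = 0.250 and 0.299).

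Kif2c, which depolymerises microtubules at the kinetochore, was read by 4 tested probe sets that went both ways. At 1432392_at the signal was 169.6 and 159 in exposed embryos with NTD and 203.9, 184 and 190.2 in those without, against 104 and 137 in control embryos, a log2 fold change of 0.60 (SE 0.21, adjusted p = 0.210, exact permutation p = 0.048). This probe set passed the filter through exposed embryos alone. The 3 others had values of -0.14, -0.07 and 0.22, none with an unadjusted p under 0.05. Kif22, a chromosome-arm motor, also went both ways, from -0.32 to 0.14 over 3 probe sets. Kif4, Kif23 and Kifc1 had values of -0.22, -0.09 and -0.25. Kif4 is on the X chromosome, and the embryos differed in sex, as given with the marker genes.

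The embryos differed in how far mitotic kinesins lay from control. The median deviation of the 15 probe sets from the mean of the controls on the log2 scale was -0.28 and 0.06 in the embryos with NTD, numbers 1 and 2, and -0.52, -0.29 and -0.24 in the exposed embryos without NTD, numbers 1 to 3. Exposed embryo 2 with NTD thus stood at the level of the controls over the group as a whole, although its Kif11 signals were below both controls at all 3 probe sets.

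Many genes of the late cell cycle carry in their promoters a CHR element, TTTGAA, read by the MuvB complexes, together with CCAAT boxes bound by NF-Y. Promoters of 40 of the 48 genes were found in RefSeq (GRCm38.p6), each with 250 bases before and 50 after the annotated start. Those of Aurkb, Incenp, Kif20a, Kif21b, Kif5a, Kif5b, Kifc2 and Kifc3 were not used here. The promoter of Kif11, the called gene, at chr19:37376132-37376431 on the plus strand, is shown whole. Capitals mark matches to both motifs on either strand, so that CHR reads TTTGAA or TTCAAA and the NF-Y box reads CCAAT or ATTGG.
Kif11: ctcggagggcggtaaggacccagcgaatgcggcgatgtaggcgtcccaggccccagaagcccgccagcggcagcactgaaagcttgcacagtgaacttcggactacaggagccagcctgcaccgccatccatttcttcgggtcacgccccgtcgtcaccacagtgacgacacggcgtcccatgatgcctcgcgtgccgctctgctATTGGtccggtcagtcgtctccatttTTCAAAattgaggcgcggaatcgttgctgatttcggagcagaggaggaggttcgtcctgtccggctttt
In Kif11 the CHR match begins 19 bases before the start and the NF-Y box 45 bases before it.

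Windows of 60 bases from 6 further promoters show how the match sits in other members of the mitotic roles, and that of Kif18a, over the same positions as the Kif11 match, shows a mitotic kinesin with neither motif.
Kif22 (chr7:127042405-127042464, minus strand): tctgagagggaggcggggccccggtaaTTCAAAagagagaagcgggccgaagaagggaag
Kif23 (chr9:61946765-61946824, minus strand): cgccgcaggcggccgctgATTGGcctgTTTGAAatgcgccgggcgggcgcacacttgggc
Kif4 (chrX:100626055-100626114, plus strand): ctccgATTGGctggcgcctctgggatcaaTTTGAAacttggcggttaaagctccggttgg
Kifc1 (chr17:33890600-33890659, minus strand): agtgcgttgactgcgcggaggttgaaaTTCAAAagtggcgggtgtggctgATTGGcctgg
Ttk (chr9:83834669-83834728, plus strand): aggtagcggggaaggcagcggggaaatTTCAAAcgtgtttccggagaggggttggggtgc
Cenpn (chr8:116921704-116921763, plus strand): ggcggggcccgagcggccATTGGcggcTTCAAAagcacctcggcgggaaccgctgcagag
Kif18a (chr2:109280692-109280751, plus strand): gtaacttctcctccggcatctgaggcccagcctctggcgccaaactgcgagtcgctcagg
These windows were chosen for a match close to the annotated start. The match of Kif2c, the remaining mitotic kinesin with one, begins 103 bases before the start, and a second match in Kif22 begins 215 bases before it.

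The CHR motif was found in 13 of the 40 member promoters (32.5%), beside 18.1% of all 27025 promoters of the same length and 11.6% of the 7025 whose gene had a tested probe set. By role it was in 6 of 7 mitotic kinesins, 4 of 6 checkpoint genes and kinases, 3 of 13 centromere proteins, 0 of 10 transport and other kinesins and 0 of 4 ciliary kinesins. Both motifs together were in 12 of 40 members (30%), beside 7.12% and 4.68%. The matches can share a base where they meet, and a match is a run of letters, not a measured site. The 13 member genes with the motif had a median log2 fold change of -0.02 and the 25 tested genes without it one of -0.05. Kif18a, with no match, and Kif11, with one, were both lower in all exposed embryos. The motif largely followed role, and only 1 mitotic kinesin promoter lacked it, so motif and role cannot be told apart. The part of the motif in the fold changes was not tested.

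**Figure D3:**
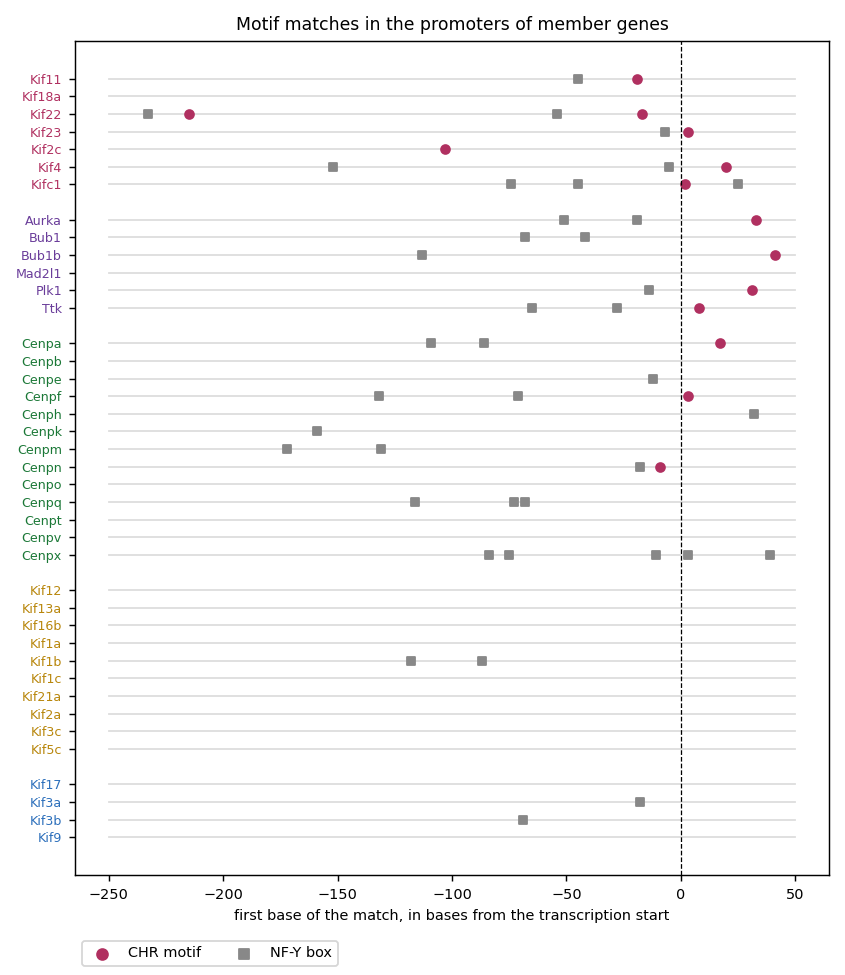
Position of each motif match (horizontal axis, bases from the annotated transcription start, dashed line) in the promoters of 40 member genes, coloured by role; circles are CHR matches and squares NF-Y boxes. CHR matches are in 6 of 7 mitotic kinesins and in no transport or ciliary kinesin.

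The checkpoint genes and mitotic kinases went both ways. Of 11 tested probe sets 0 were lower and 1 was higher at an unadjusted p under 0.05, and values ran from -0.20 to 0.41 around a median log2 fold change of -0.02. In 3 all exposed embryos lay below both controls and in 3 above both, or 27.3% each, beside the background of 13.4% and 11.4%. Aurka, the kinase of the spindle poles, had 1452 and 1375 in exposed embryos with NTD and 1383, 1395 and 1487 in those without, against 1543 and 1590.3 in control embryos. Every exposed embryo was below both controls, by a small step of -0.14 (SE 0.11, 95% interval -0.38 to 0.10), at an exact permutation p of 0.048. Aurkb, the kinase of the passenger complex, was at -0.15 (-0.42 to 0.11) at its brighter probe set.

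Among checkpoint genes, Mad2l1, which inhibits the anaphase-promoting complex, had a value of -0.18 (-0.49 to 0.12), with all exposed embryos below both controls (exact permutation p = 0.19). Bub1 and Bub1b, both kinetochore proteins of the checkpoint, had 0.03 (-0.37 to 0.42) and 0.07 (-0.23 to 0.37), and Ttk, the kinase that recruits them, had -0.02 (-0.33 to 0.29). All of these intervals hold zero, and all also hold shifts of 0.1 in either direction. Plk1, which acts on spindle poles, kinetochores and cell division, had 1926 and 2197 in exposed embryos with NTD and 2172, 1769.8 and 2604 in those without, against 1752 and 1767 in control embryos. All exposed values were above both controls, at 0.27 (-0.06 to 0.59, exact permutation p = 0.143), and exposed embryo 2 without NTD was just above them.

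Incenp, the scaffold that activates Aurkb, gave different answers at its 3 probe sets. At 1439436_x_at the signal was 2344 and 2583 in exposed embryos with NTD and 2217, 2804 and 1911 in those without, against 1725 and 1805 in control embryos. The log2 fold change there was 0.41 (SE 0.15, adjusted p = 0.212) and at 1423092_at it was 0.34 (SE 0.16), both with all exposed embryos above both controls and an exact permutation p of 0.095. At 1423093_at it was -0.20 (SE 0.15), with all exposed embryos below both controls (exact permutation p = 0.19). The probe set 1439436_x_at carries the suffix by which Affymetrix marks probes that may hybridise to other transcripts. The brightest probe sets of Aurkb, Kif22 and Kif2c carry that suffix as well.

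The centromere proteins were mostly on the higher side. Of 15 tested probe sets 11 had a positive log2 fold change, the median was 0.11, and 1 was lower and 1 higher at an unadjusted p under 0.05. All 13 genes had a tested probe set. Without control embryo 1 the median was 0.06, and without control embryo 2 it was 0.12.

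Cenph, a subunit of the inner kinetochore, had a signal of 325 and 295 in exposed embryos with NTD and 338, 303 and 239.7 in those without, against 383 and 401 in control embryos. All exposed embryos were below both controls, at -0.39 (SE 0.16, adjusted p = 0.272, exact permutation p = 0.048). Cenpk, a partner of Cenph in the same complex, was on the other side at 0.29 (-0.03 to 0.61), with all exposed embryos above both controls (exact permutation p = 0.095). Cenpx, a histone-fold protein of the kinetochore that also serves in DNA repair, had 521 and 415 with NTD and 686, 448 and 538 without NTD, against 389 and 381 in control, at 0.41 (SE 0.19, adjusted p = 0.308, exact permutation p = 0.143).

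Cenpa itself had a value of 0.13 (-0.22 to 0.48), and the large kinetochore protein Cenpf had 0.11 (-0.14 to 0.37) at its brighter probe set. Cenpe, the kinesin-7 that carries chromosomes to the metaphase plate, had the widest interval of the centromere proteins. Its signal was 274 and 135 with NTD and 245, 334 and 114 without NTD, against 187 and 189 in control, so that the exposed embryos lay on both sides of the controls and the interval of its log2 fold change ran from -0.73 to 0.95.

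**Figure D4:**
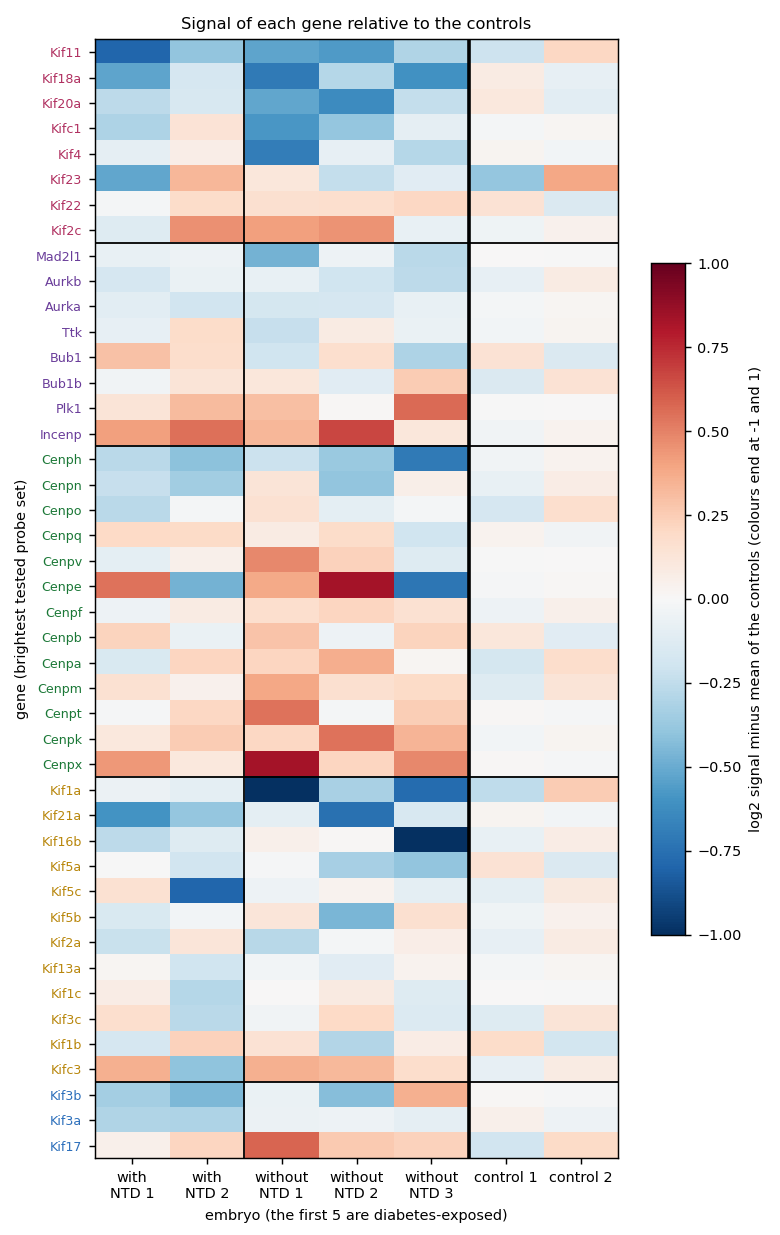
Log2 signal of the brightest tested probe set of each member gene (rows, coloured by role) minus the mean of the 2 controls, in the 7 embryos (columns: exposed with NTD, exposed without NTD, control); blue is below the controls and red above, and colours end at -1 and 1. Kif11, Kif18a and Kif20a are blue in all 5 exposed embryos, and Incenp, Cenpk and Cenpx are red in all 5.

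Transport and other kinesins lay below control at 24 of 27 tested probe sets, with a median log2 fold change of -0.27. At an unadjusted p under 0.05, 4 were lower (14.8%) and 0 higher, beside 8.52% and 7.63% of all tested probe sets. Among the 4 was a probe set of Kif5c that passed the filter through control embryos alone. The median rested in part on dim probe sets and on genes with many probe sets: it was -0.19 when the filter used the mean over all arrays, -0.08 over all 36 with no filter, and -0.07 over the 12 genes by their brightest probe set, of which 0 passed the unadjusted threshold. Without control embryo 1 the median over the 27 probe sets was -0.23 and without control embryo 2 it was -0.33.

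Kif1b, a kinesin-3 for mitochondria and synaptic vesicle precursors, was represented by 7 tested probe sets, none with a positive log2 fold change. At 1451762_a_at the signal was 184 and 169 in exposed embryos with NTD and 151, 139.7 and 118 in those without, against 240.4 and 253 in control embryos, at -0.71 (SE 0.22, adjusted p = 0.164). At 1451200_at it was 808 and 843 with NTD and 969, 719 and 776 without NTD, against 1040.4 and 1057 in control, at -0.36 (SE 0.14, adjusted p = 0.244). In both, all exposed embryos were below both controls, with an exact permutation p of 0.048. The brightest Kif1b probe set, 1423994_at, was at 0.00 (-0.38 to 0.38).

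Kif2a, a microtubule depolymerase of the spindle pole and the growth cone, was lower at 1450052_at, with 739 and 814 in exposed embryos with NTD and 809.8, 659 and 1018 in those without, against 1327 and 938 in control embryos, at -0.48 (SE 0.19, adjusted p = 0.243). Exposed embryo 3 without NTD lay between the controls. Its other probe sets had values of -0.34, -0.07 and 0.10. Kif21a, a brake on microtubule growth, was at -0.40 (SE 0.18), with all exposed embryos below both controls (exact permutation p = 0.095). Kif5a and Kif5b, the conventional kinesin heavy chains, were at -0.19 and -0.07 at their brightest probe sets, and all 5 Kif5b probe sets were negative.

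Kif5c, the third kinesin-1 heavy chain, which is enriched in neurons, was dim in exposed embryos at 1450804_at, which passed the filter through control embryos alone. The signal was 71.5 and 11.7 with NTD and 11.4, 5.87 and 9.38 without NTD, against 169 and 211 in control embryos. In 4 of the 5 exposed embryos the signal was below the 20th percentile of the array (42.7 to 51.8 in these arrays), so the size of the difference is not measured: the fitted log2 fold change was -3.76 (SE 1.35), -2.33 with signals floored at 32 and -1.80 with 50 added to each, at adjusted p-values of 0.212, 0.0783 and 0.0524 (limma). The brighter Kif5c probe set 1422945_a_at was at -0.15 (-0.70 to 0.40).

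Ciliary kinesins had values from -0.59 to 0.61, with a median of -0.11 over 8 tested probe sets and of -0.16 over 3 genes by their brightest one. At an unadjusted p under 0.05, 0 were lower and 1, which passed the filter through exposed embryos alone, was higher. Kif3a was at -0.16 and 0.04, and all 4 probe sets of Kif3b were negative, from -0.59 to -0.07. At the lowest, 1450073_at, the signal was 209.9 and 162 in exposed embryos with NTD and 126, 115 and 239 in those without, against 242 and 251 in control embryos (SE 0.29). Kif17, which enters the cilium and also carries receptors in dendrites, had 143 and 175 with NTD and 196, 137 and 162 without NTD, against 96.8 and 116 in control at 1419827_s_at. All exposed embryos were above both controls, at 0.61 (SE 0.23, adjusted p = 0.243, exact permutation p = 0.048). The brighter Kif17 probe set was at 0.27 (-0.14 to 0.68).

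Probe sets of one gene often disagreed. Of 15 member genes with 2 or more tested probe sets, 6 had values of both signs: Incenp, Kif1c, Kif22, Kif2a, Kif2c and Kif3a. The span between probe sets was 3.61 on the log2 scale for Kif5c, which includes its dim probe set, and next 0.74 for Kif2c, 0.71 for Kif1b, 0.69 for Kif11 and 0.61 for Incenp, against an SE of single values of 0.14 to 0.42 for the last 4 genes. A gene's fold change here is thus a fold change at a given probe set.

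Embryos with and without NTD, which share the diabetic dam, were compared within the exposed litter. No member passed the test, nor did any of the 14542 probe sets (0 called, or 0%, limma on 3 groups). At an unadjusted p under 0.05 there were 2 members, both higher with NTD, or 2.63% beside 3.01% of all probe sets. With 2 against 3 embryos the exact test cannot go below p = 0.1.

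The member of smallest p was Kif5b at 1418429_at, with 528 and 687 in embryos with NTD, against 333, 515 and 370 in those without, at a log2 fold change of 0.60 (SE 0.21, adjusted p = 0.999). The embryos with NTD lay above the others, and the 2 controls were at 676 and 661. Kif2c at 1454221_a_at had 974.9 and 973.7 with NTD, against 617, 764 and 879 without NTD, at 0.39 (SE 0.17), and again the groups did not overlap. Kif11 at 1452314_at was at 0.30 (SE 0.14), with its signals as given. The 95% interval of the difference at the called Kif11 probe set, 1452315_at, was -0.05 to 0.64. Without exposed embryo 1 without NTD the number of members at an unadjusted p under 0.05 was 0, without exposed embryo 2 without NTD it was 10 and without exposed embryo 3 without NTD 5. The share over all probe sets in these fits is not given, so these counts cannot be read as a difference particular to the members.

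Genes that work beside the members were examined in lists of other parts of the same machinery, first by the brightest probe set of each gene and then over all tested probe sets. By brightest probe set, of 15 genes of the outer kinetochore and its regulators, 1 was lower and 1 higher in exposed embryos at an unadjusted p under 0.05. Sgo1, which guards centromeric cohesion, had 532 and 654 with NTD and 542, 576 and 504 without NTD, against 762 and 719 in control, at -0.40 (SE 0.14, adjusted p = 0.195). Pmf1, a subunit of the Mis12 complex, was at 0.65 (SE 0.22, adjusted p = 0.187), where exposed embryo 3 without NTD stood above the others at 1741. Of 14 spindle and passenger partners 0 passed in either direction. A further list held 13 tested genes: mitotic cyclins, genes acting with the anaphase-promoting complex and other genes of the late cell cycle. Of these 0 were lower and 1 was higher, Cdc25b, a phosphatase that activates Cdk1, at 0.41 (SE 0.16, adjusted p = 0.239). Of 12 cohesin and condensin genes 0 were lower and 1 was higher, Ncaph2 of condensin II at 0.37 (SE 0.12, adjusted p = 0.182). Of 15 kinesin light chains, adaptors and dynein subunits 0 were lower and 2 were higher, Dctn1 at 0.28 and Mapk8ip1 at 0.28. The median log2 fold change in these 5 lists ran from -0.09 to 0.09, and in none was a gene called at the adjusted threshold, as was also the case for the members by brightest probe set.

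Over all their tested probe sets, the unit in which the members were counted, the same lists also had 0 called, and cohesin and condensin had more values below control. Of their 27 probe sets 7 were lower and 1 higher at an unadjusted p under 0.05, with a median of -0.24. Of all tested probe sets 8.52% were lower and 7.63% higher at that threshold. The lower ones of cohesin and condensin read Stag1 and Smc1a, with 2 each, and Stag2, Smc4 and Ncapg, from -0.92 to -0.47. Stag1, a cohesin subunit, had 288 and 241 in exposed embryos with NTD and 222, 209 and 227 in those without, against 439.6 and 453 in control embryos at its dimmest probe set, at -0.92 (SE 0.16, adjusted p = 0.0597). Of 26 probe sets of spindle and passenger partners 1 was lower and 1 higher. The lower one was Spag5, a protein of spindle and kinetochore, with 256 and 229.8 with NTD and 173, 239.6 and 246 without NTD, against 439.8 and 469 in control at its dimmest probe set, at -1.001 (SE 0.18, adjusted p = 0.0601), while its brighter probe sets were at 0.04 and 0.03. All exposed embryos were below both controls in Stag1 and Spag5 at these probe sets. Of 23 probe sets of the outer kinetochore list 2 were lower and 2 higher, of 20 of the cyclin list 0 and 2, and of 27 of the light chain and dynein list 1 and 2.

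The embryos also differed in marker genes, whose part in the member values was not tested. All 13 neuronal markers were tested, and 1 was called by its brightest probe set (Map2, a microtubule protein of dendrites). At an unadjusted p under 0.05, 7 were lower (53.8%) and 0 higher in exposed embryos, beside 8.52% and 7.63% of all tested probe sets. The summed signal of the neuronal markers was 11106 to 11402 in exposed embryos with NTD and 9859 to 12527 in those without, against 14069 to 14095 in control embryos. The part of this difference in the values of the transport kinesins, several of which serve neurons, was not tested. Of 6 neural progenitor markers 1 was lower and 1 higher, of 5 heart muscle markers 0 were lower or higher, and of 4 markers of skeletal muscle and somite 0 were lower and 1 was higher. All 5 markers of primitive erythroid cells were higher at that threshold, with a sum of 64028 to 83398 in exposed and 51887 to 54080 in control embryos. The summed markers of yolk sac endoderm and liver were 25809 in exposed embryo 1 without NTD and 1156 to 2279 in the other exposed embryos, against 3218 and 3260 in control embryos. The trophoblast marker Tpbpa was below the 40th percentile on all arrays. Without exposed embryo 1 without NTD, 4 of 15 mitotic kinesin probe sets were lower at an unadjusted p under 0.05 and 1 was higher. Of 27 transport kinesin probe sets 5 were lower and 0 higher, beside 2429 of all 14542 tested probe sets in either direction.

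The groups were also unlike in sex. For the X-inactivation transcript Xist the signal was 7533 and 256 in the exposed embryos with NTD (1 and 2) and 6074, 6840.3 and 6098 in those without, against 181 and 165 in control embryos, and the Y-linked genes ran the opposite way. Exposed embryo 2 with NTD therefore matched the controls in sex. Its mitotic kinesins had a median deviation from control of 0.06, while in the 4 exposed embryos with high Xist the median was -0.52 to -0.24. Its Kif11 signals were below both controls. The other roles differed: its median was 0.13 for checkpoint genes and kinases, against -0.15 to -0.03 in those 4 embryos. For transport kinesins it was -0.27, against -0.20 to -0.06, and for ciliary kinesins -0.28, against -0.11 to 0.08. For centromere proteins it was 0.04, within their -0.03 to 0.21. The part of sex in the member values was not tested. The ratio of 3' to 5' signal of the Gapdh control probes, a measure of RNA integrity, was 0.822 to 0.915 in exposed and 0.788 to 0.854 in control embryos, and that of beta-actin 1.07 to 1.17 in exposed and 1.05 to 1.12 in control embryos. Signals correlated at r = 0.947 to 0.9754 between exposed embryos and at 0.978 between the controls (log2, across probe sets), against 0.923 to 0.963 between exposed and control embryos.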

How the data were processed

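Whole FVB mouse embryos at embryonic day 10.5 were measured on Affymetrix 430A 2.0 arrays, 1 embryo per array. The deposited values are linear intensities, signals that the authors computed with MAS5 (version not given in the sources used here), then scaled on each array to a mean, trimmed by 2% at each end, of 500.2. Detection calls were not used. No between-array normalization was added. Symbols came from the array annotation, which gives 1 symbol for 20393 of 22690 probe sets, several for 691 and none for 1606. After removal of 64 control probe sets, the 14542 whose signal reached the 40th percentile of its array in no fewer than 2 embryos entered the fits, as log2 signals floored at 1.

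Exposed embryos (5) were set against controls (2), and embryos with NTD against those without, by limma 3.58.1 in R 4.3.3 (two-sided, with a mean-variance trend), Benjamini-Hochberg adjusted over all tested probe sets, and single values by exact permutation. The script was tested on simulated data. Members, roles and lists were chosen with earlier results of these data known. The text names called probe sets with the others of their gene, members at an unadjusted p under 0.05, the 3 with the smallest p in the contrast of NTD, the checkpoint genes and kinases, and up to 3 genes of each further list. Other members are given where their probe sets or embryos are described, and were chosen after their values were seen. Alternatives covered normalization, floor, offset, filter, trend, array weights, Welch's test as in the study's methods, the embryo number as a block and leaving out each embryo.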

Additional observations from a re-analysis of the deposited data

Results flagged for a closer look

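One of 23 named probe sets had an exposed embryo far from the other exposed embryos. At Kif5c 1450804_at exposed embryo 1 with NTD had a signal of 71.5, against 5.87 to 11.7 in the other 4 exposed embryos, and the gap took up 0.722 of the range of the exposed embryos, beyond the critical value of 0.710. Chance flags about 1 in 20 such groups. The control embryos had 169 and 211 at this probe set, so this embryo too lay below both.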

How the results depend on the processing

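The count of members called in exposed against control embryos was 1 and became 0 with no filter on dim probe sets, with no trend, with Welch's test and with the embryo number as a replicate block, and ranged from 0 to 1 when each embryo was left out. The adjusted p of Kif11 1452315_at in these 4 settings was 0.0597, 0.0529, 0.0854 and 0.117, and its log2 fold change stayed between -1.22 and -1.10 in all fits that left out an embryo. The embryo numbers of the labels were not taken as pairs. The deviations of same-numbered embryos from their group means correlated at -0.248 to 0.026. In groups this small the centring itself constrains these values, so they cannot show whether same-numbered embryos share a batch. The block also sets aside exposed embryo 3 without NTD, whose number no other embryo shares. It left 2 members higher at an unadjusted p under 0.05 in place of 4 and gave a median log2 fold change of -0.10 over members. The number lower at that threshold was 10 and at most 12 on leaving out an exposed embryo. The number higher was 4, at most 6 on leaving out an exposed embryo, and 2 with embryos without NTD alone against controls. Both numbers were smaller in the fits that left 1 control. Fewer probe sets passed over the whole array too, but the members that passed, in both directions together, fell by a larger share. Over members that passed the filter in both groups, chosen after seeing the data, 9 were lower and 2 higher, with a median of -0.10. The median, -0.09, was -0.072 with quantile normalization, -0.064 with no filter, and -0.12 to -0.076 on leaving out an embryo. With Welch's test 12 members were lower and 4 higher at an unadjusted p under 0.05, beside 1532 and 1116 of all 14542 probe sets. After adjustment 0 passed, among the members and over the whole array. Values near zero changed sign. Bub1, at 0.03, was at -0.11 with embryos without NTD alone and from -0.12 to 0.17 on leaving out an embryo. Bub1b, at 0.07, ran from -0.073 to 0.21 on leaving out an embryo, and Ttk, at -0.02, from -0.073 to 0.030, with 0.017 under array weights. The cause was not tested. Between embryos with and without NTD 0 members were called in all settings run. Only 2 controls from a single litter limit all of these values, and signals below the 40th percentile are close to background.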
